A study of Saccharomyces cerevisiae with 24 samples.

Results

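Ribosome footprints, the mRNA fragments that translating ribosomes protect from nuclease, were compared between 2 libraries of budding yeast. One came from cells that had spent 20 min in medium free of amino acids, and the other from cells kept as long in the same medium with histidine, methionine and leucine added back. They are 2 of the 24 samples of the series, of which 23 have a column in the tables, and were taken by their labels. Every gene was followed on the log2(RPKM + 1) scale (RPKM, footprint reads per kilobase of gene and per 10 to the power of 6 reads), as the value without amino acids minus the value with the 3 added back.

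Strain BY4741 cannot make histidine, leucine, methionine or uracil, because it carries marker mutations in the genes for them. Both cultures were grown in SD medium (nitrogen base, amino acids with other supplements, and glucose) at 30°C and collected by filtration before the move. No cycloheximide, a drug that stops ribosomes, was in the culture medium, although it was in the lysis buffer. A further SD library, from complete medium with no starvation, is given beside the pair. Each medium has 1 library, so that no difference below has a replicate check and no p-value is given. The library without amino acids and that from complete medium were made with primer set 1, and the library with His, Met and Leu with primer set 2, so that primer set and amino acids cannot be told apart. The move to the new medium removed the other supplements too. The methods name uracil among the compounds that were supplied in some cases, while the label of the library with His, Met and Leu names only these 3.

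In yeast, lack of amino acids raises translation of the activator Gcn4, which turns on amino acid synthesis genes across many pathways. Single pathways have controls of their own besides. Genes of sulfur assimilation, which turn sulfate into sulfide and then into homocysteine, cysteine and methionine, are activated by Met4 and held back when methionine or cysteine is plentiful. Genes of leucine synthesis are activated by Leu3, which responds to an intermediate of that pathway.

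The library without amino acids had 1.92 M reads (M, 10 to the power of 6), the lowest depth of the 23 libraries, against 5.67 M with His, Met and Leu and 9.71 M in complete medium. The 23 libraries had up to 27.9 M reads, with a median of 6.94 M. These depths were recovered from the steps of the low RPKM values. MET17 (YLR303W), LEU2 (YCL018W) and URA3 (YEL021W), a gene each of methionine, leucine and uracil synthesis, were listed at 0 in all 3 SD libraries. HIS3 (YOR202W), of histidine synthesis, was not, with 507 RPKM without amino acids, 312 with the 3 added back and 98.8 in complete medium. Its footprints do not tell whether the frame is whole. Of the genes that mark mating type a, STE2, the receptor for alpha factor, had 842, 259 and 284 RPKM in this order. STE3, the receptor of alpha cells, had 15.1, 4.44 and 2.35.

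Genes of sulfur and methionine metabolism stood far above the rest in the cells without amino acids, and genes of ribosomes and glycolysis lay below. Of the 5564 lines of the table, 4498 had a mean of at least 10 RPKM over the 2 libraries and were kept. Their median difference was 0.35 on the log2 scale, or 1.27-fold, and was subtracted from each gene. After this centring, 473 genes (10.5%) were at least 2-fold higher without amino acids and 569 (12.7%) at least 2-fold lower, 1042 (23.2%) in all. These shares are the background to the counts given for each list below. On the values as deposited, without centring, the split was 940 (20.9%) higher and 320 (7.11%) lower, so that the balance of directions depends on the scaling. At least 4-fold differences were seen for 95 genes (2.11%) upwards and 80 (1.78%) downwards. RPKM values are shares of a library, and in a pool of cells fewer cells that translate a gene cannot be told apart from fewer footprints per cell. No mRNA library stands beside them, so that mRNA level and translation per mRNA cannot be told apart. The study describes ribosomes that stall where the essential amino acids are wholly lacking. Footprints of slower ribosomes and of more ribosomes cannot be told apart here either. The pseudocount of 1 understates the fold of genes with low values.

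**Figure D1:**
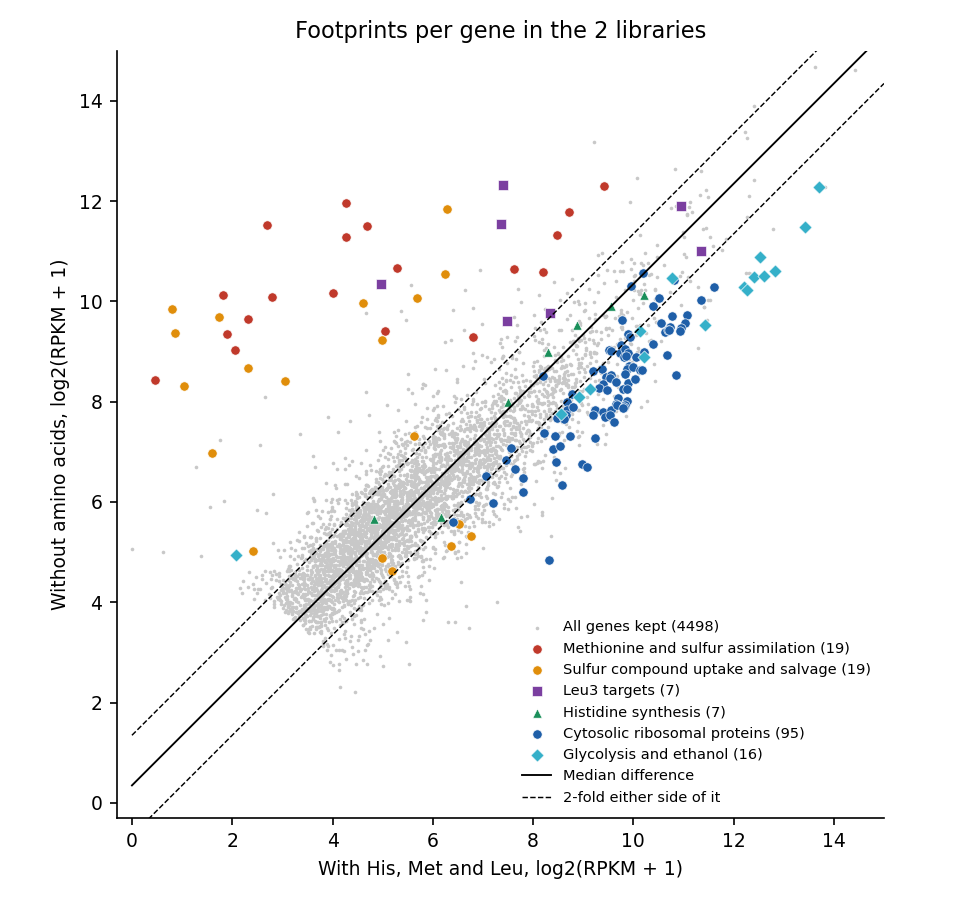
Log2(RPKM + 1) of each of the 4498 genes kept, with His, Met and Leu on the x axis and without amino acids on the y axis. Colours mark 6 gene lists, the solid line the median difference and the dashed lines 2-fold on either side of it. The 19 methionine and sulfur assimilation genes lie far above the lines, while most ribosomal protein genes lie under them.

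For scale, the same rule was applied to libraries of cells in rich medium that were not starved. Between the 2 replicates of unstressed cells with the highest dose of cycloheximide, 20 of 3658 genes (0.547%) were past 2-fold. Between the 2 replicates under oxidative stress at that dose it was 68 of 4293 (1.58%). The 3 pairs among drug-free unstressed cells and cells lysed with edeine or aurintricarboxylic acid, 2 inhibitors of translation initiation, gave between 1.44% and 3.75%. All of these pairs share a primer set. Over the 16 libraries of unstressed and peroxide-treated cells in rich medium, a term for the primer set beside dose and stress was called for 0 of 4352 genes (limma, Benjamini-Hochberg adjusted p threshold 0.05), with 98 genes at an unadjusted p under 0.05. The median size of this term, set 1 minus set 2, was 0.13 on the log2 scale, and 21 genes were past 2-fold. Within a dose the primer set differed only at x1 and x8, where unstressed cells had set 1 and peroxide-treated cells set 2. The term thus rests on these doses and cannot be told apart from an effect of stress particular to them. Neither the 0 calls nor any value below with this term taken off separates primer set from the media.

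All 19 members of the methionine and sulfur assimilation list that were kept were at least 2-fold higher without amino acids, beside 10.5% of all genes kept. Their median centred difference was 6.46 and their range 2.04 to 8.48, against a median of 0 over all genes. The median member had 1529 RPKM without amino acids, 18.4 with His, Met and Leu and 71.9 in complete medium. All 19 had their highest value of the 23 libraries in the cells without amino acids. That library was also the highest for 1901 (42.3%) of all genes kept. The lists were chosen with earlier results of these data known, and their counts describe these 2 libraries. The list's median primer set term was 0.13, and the median difference was 6.12 with this term taken off each gene. As the term rests on the doses x1 and x8 in rich medium, this is no correction for primer set.

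These genes also took a larger share of all footprints. Among reads on lines with 1 locus, the list held 6.58% without amino acids (94755 reads, 95% exact interval 6.54 to 6.62%), 0.512% with His, Met and Leu (0.505 to 0.519%) and 1.91% in complete medium (1.90 to 1.92%). With the genes of sulfur compound uptake and salvage it was 8.27%, 0.599% and 2.10%. These intervals, like those of single genes below, cover counting error only, and reads copied by PCR are not independent molecules.

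The first steps take sulfate into the cell and activate it. The sulfate permeases SUL1 (YBR294W) and SUL2 (YLR092W) had 656 and 800 RPKM without amino acids. With the 3 amino acids they had 2.70 and 3.96 RPKM, and in complete medium 1.495 and 17.4. Both had their highest value of the 23 libraries without amino acids. MET3 (YJR010W), the sulfurylase that joins sulfate to ATP, had 2498, 18.2 and 170 RPKM in the cells without amino acids, with His, Met and Leu and in complete medium. MET14 (YKL001C), the kinase of the next step, had 4016, 18.4 and 251. The ratio without over with the 3 amino acids was 137 for MET3 (95% interval 117 to 163) and 219 for MET14 (167 to 292).

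The genes that reduce sulfate to sulfide were likewise highest without amino acids. MET16 (YPR167C), which reduces activated sulfate to sulfite, had 1615 RPKM without amino acids, 38.1 with the 3 added back and 28.8 in complete medium. MET5 (YJR137C) and MET10 (YFR030W), the subunits of sulfite reductase, had 1145 and 678 RPKM without amino acids against 15.1 and 32.3 with them, and 123 and 71.9 in complete medium. MET1 (YKR069W) and MET8 (YBR213W), which make the sirohaem that this enzyme needs, had 1112 and 525 RPKM against 2.52 and 3.16, and 11.6 and 20.6 in complete medium. In the library with His, Met and Leu, MET1 rested on 24 reads and MET8 on 13. MET8 had its lowest value of all 23 libraries there, which was the case for 17 (0.378%) of all genes kept.

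The enzymes that build homocysteine, cysteine, methionine and S-adenosylmethionine covered both large and small ratios. MET2 (YNL277W), which makes the carbon acceptor of sulfide, had 1089, 5.97 and 26.8 RPKM in the 3 libraries. STR3 (YGL184C), the lyase that turns cystathionine into homocysteine, had 2927, 5.44 and 33.2, a ratio of 538 (395 to 754) between the first and the second. MET6 (YER091C), the methionine synthase, had 5062, 678 and 2549 RPKM, a ratio of 7.47 (7.28 to 7.66). MET13, which supplies the methyl folate for it, had 627, 111 and 72.9. CYS3 and CYS4, which lead from homocysteine to cysteine, had 3542 and 2560 RPKM without amino acids and 420 and 355 with the 3 added back, with ratios of 8.43 and 7.21. SAM1 and SAM2, paralogous synthetases of S-adenosylmethionine whose reads may be split uncertainly, had 1529 and 1594 RPKM against 292 and 197, and 938 and 859 in complete medium.

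With His, Met and Leu added back, the list lay under its level in complete medium. Relative to complete medium, and centred in the same way, the list's median was 3.02 higher without amino acids and 2.45 lower with His, Met and Leu. Both differences share the library from complete medium. Of the members kept, SUL1, MET16 and MET13 had a higher value with His, Met and Leu than in complete medium, and the rest a lower one. The pair of complete medium and His, Met and Leu also differs in primer set.

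**Figure D2:**
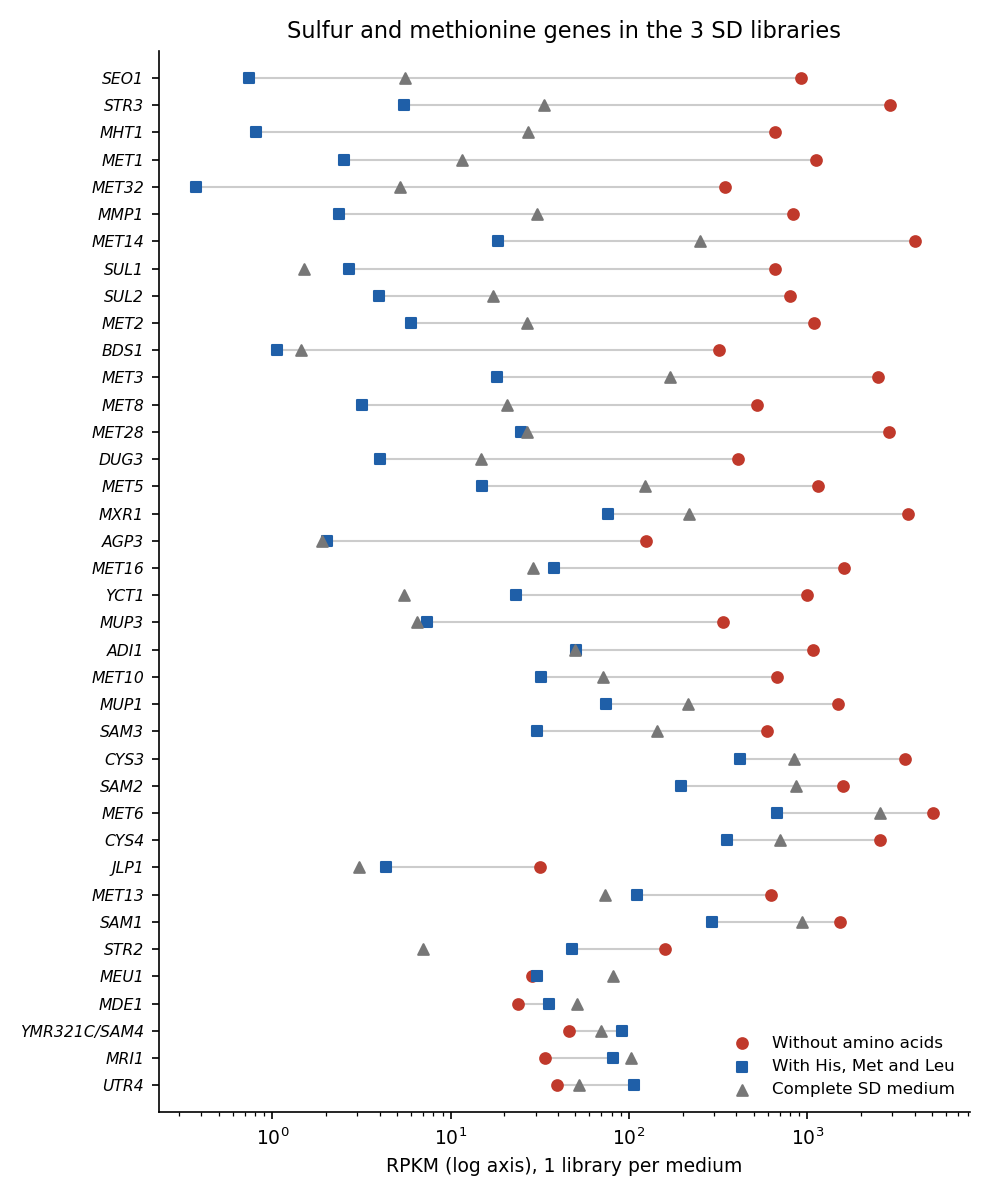
RPKM on a log axis of the kept genes of both sulfur lists, 1 library per medium, ordered by the difference without amino acids minus with His, Met and Leu. The circles (without amino acids) lie to the right of the squares (with the 3 added back) for all genes but the 5 at the bottom.

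The regulators of the pathway were looked at as a list that was chosen after values had been seen, as were the 2 lists that follow. MET32 (YDR253C), a DNA-binding partner of Met4, had 347 RPKM without amino acids, 0.371 with His, Met and Leu and 5.19 in complete medium. Its value with the 3 amino acids was 1 read, so that the ratio of 935 has a counting interval of 167 to 37058. MET28 (YIR017C), a cofactor of the complex, had 2884, 24.7 and 26.9 RPKM. MET30 (YIL046W), the ubiquitin ligase subunit that restrains Met4, had 273, 5.32 and 10.6. MET4 itself (YNL103W) had 75.7, 28.2 and 20.9, a centred difference of 1.04. CBF1 and MET31, further DNA-binding partners, had centred differences of 0.82 and 0.27, within 2-fold. Thus 4 of 6 were past 2-fold, all upwards.

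Of 19 lines for uptake and salvage of sulfur compounds, 14 were at least 2-fold higher and 3 at least 2-fold lower without amino acids, with a median of 4.04. SEO1 (YAL067C), a permease of the plasma membrane, had the largest centred difference of all single-locus genes kept, 8.70. It had 919 RPKM without amino acids, 0.735 (7 reads) with the 3 added back and 5.57 in complete medium. MHT1 (YLL062C), a methyltransferase that makes methionine from S-methylmethionine, had 661, 0.807 (4 reads) and 27.1. MMP1 (YLL061W), the permease for S-methylmethionine, had 830, 2.35 and 30.5. BDS1 (YOL164W), a sulfatase, had 319, 1.06 and 1.46 RPKM. The methionine permeases MUP1, of high affinity, and MUP3, of low affinity, had 1496 and 338 RPKM without amino acids and 74.7 and 7.33 with them. YCT1, the cysteine transporter, had 999, 23.4 and 5.44, and MXR1, which reduces methionine sulfoxide, had 3663, 76.4 and 218.

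The genes that salvage methionine from methylthioadenosine did not move as 1 group. ADI1, the dioxygenase of this cycle, had 1072 RPKM without amino acids, 50.1 with His, Met and Leu and 50.1 in complete medium. UTR4, an enolase and phosphatase, had 39.2, 107 and 52.6 RPKM, and MRI1, an isomerase, had 33.9, 80.9 and 103, with centred differences of -1.78 and -1.58. MDE1, a dehydratase, and MEU1, a phosphorylase, had -0.91 and -0.44, so that ADI1 alone of these 5 was higher. The line of SAM4, which also uses methyl donors for methionine, joins a second locus (YMR321C) and had 46.1, 91.0 and 69.4 RPKM.

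The 12 single-locus genes with the largest positive difference were SEO1, STR3, MHT1, MET1, MET32, MMP1, MET14, SUL1, SUL2, MET2, BDS1 and MET3. Their centred differences reached from 6.68 to 8.70. Of these, 8 belong to the methionine and sulfur assimilation list and all 12 to one of the sulfur lists, the second of which was chosen with these values known.

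Leucine synthesis gave a second, smaller group. Of 7 kept targets of Leu3, 5 were at least 2-fold higher without amino acids, with a median of 1.77. With the primer set term taken off each gene, 4 were higher and the median was 1.44. LEU1 (YGL009C), the isomerase of the leucine branch, had 5151 RPKM without amino acids, 168 with His, Met and Leu and 296 in complete medium, a ratio of 30.6 (29.3 to 32.0) between the first pair. OAC1 (YKL120W), a mitochondrial carrier of oxaloacetate and a leucine precursor, had 1308, 30.3 and 67.0, a ratio of 43.2 (36.6 to 51.4). BAT1 (YHR208W), the mitochondrial aminotransferase of branched amino acids, had 2969, 163 and 271. ILV2, the acetolactate synthase, had 778, 179 and 227, and LEU4, which opens the leucine branch, had 874, 323 and 142. In each of these 5 genes the cells without amino acids had the highest value of the 23 libraries, as in 42.3% of all genes kept. The 5 are those of the list that were higher in that same library. ILV5, a reductoisomerase, and GDH1, a glutamate dehydrogenase, had centred differences of 0.61 and -0.69.

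Not every gene of the branched pathway was higher. Of the 10 kept genes of leucine, isoleucine and valine synthesis, 4 were at least 2-fold higher and 2 at least 2-fold lower, with a median of 0.56. With the primer set term taken off each gene the median was 0.15, with 3 higher and 2 lower, and without centring it was 0.91. The lower ones were ILV1, the threonine deaminase that opens the isoleucine branch, with 52.7 RPKM against 105, and ILV6, the regulatory subunit of acetolactate synthase, with 161 against 366. The permease BAP2, which takes up leucine and its relatives, had 408 RPKM without amino acids, 111 with the 3 added back and 102 in complete medium.

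The genes of histidine synthesis differed little between the 2 media. Of 7, none was past 2-fold after centring, and their median was 0.15 with a range from -0.80 to 0.47. On the values as deposited none was past 2-fold either. With the primer set term taken off, the median was 0.01 and 1 gene, HIS2, a phosphatase of the pathway, was past 2-fold, at -1.18. HIS4 (YCL030C), with several steps of the pathway in 1 protein, had 1111 RPKM without amino acids, 1182 with His, Met and Leu and 142 in complete medium. HIS5, an aminotransferase, had 735, 469 and 76.8. HIP1, the histidine permease, had 81.2, 65.2 and 67.7. Relative to complete medium, the list's centred median was 1.16 without amino acids and 1.09 with the 3 added back, 2 differences that share the library from complete medium.

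Of the 48 kept genes for the other amino acids, 12 (25.0%) were past 2-fold in either direction, beside 23.2% of all genes kept. Of 9 genes of arginine synthesis, 1 was past 2-fold in each direction and the median was 0.15. Both starved libraries had them far above complete medium, by a centred median of 2.48 and 2.46 with the shared control. ARG4, the argininosuccinate lyase, had 1752 RPKM without amino acids, 1245 with the 3 added back and 159 in complete medium. CPA1, a subunit of carbamoyl phosphate synthetase that is repressed by arginine, had 1990, 662 and 82.8, a centred difference of 1.24. Its primer set term (set 1 minus set 2) was -1.52. ARG1, the argininosuccinate synthetase, had 2091, 3486 and 227, a centred difference of -1.08.

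Lysine synthesis had 3 of 7 lines lower and none higher, with a median of -0.77 (-0.43 without centring). LYS9, the saccharopine-forming dehydrogenase, had 85.6 RPKM without amino acids against 353 with the 3 added back, a centred difference of -2.38. Aromatic amino acid synthesis had 2 of 13 lower and none higher. The lower ones were ARO1, with several steps of the shared pathway in 1 protein, and ARO2, the chorismate synthase, at -1.43 and -1.56. Among 19 genes of the remaining amino acids 2 were higher and 3 lower.

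Within that last list, 2 isoenzymes of the same step had opposite differences. SER33 (YIL074C) and SER3 (YER081W) both code for the dehydrogenase that opens serine synthesis. SER33 had 1193 RPKM without amino acids, 98.5 with His, Met and Leu and 95.9 in complete medium. SER3 had 787, 2824 and 187 in the same order. Their centred differences were 3.24 and -2.19, and their primer set terms 0.21 and -0.11. HOM3, the aspartate kinase that leads to homoserine, threonine and methionine, was the other gene past 2-fold upwards, with 826 RPKM against 195. As the 2 isoenzymes are paralogs, the division of their shared reads is not known.

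GCN4 (YEL009C), the activator itself, had 4065 RPKM without amino acids, 973 with the 3 added back and 37.1 in complete medium. The ratio between the first 2 was 4.18 (4.01 to 4.35) and the centred difference 1.72. It was the only one of 10 kept genes of its pathway past 2-fold upwards. GCN2, the kinase that senses uncharged tRNA, had 16.1, 15.1 and 7.47 RPKM. The 2 genes past 2-fold downwards were GCN1, a partner of that kinase, with 45.4 against 73.3 RPKM, and GCD1, a subunit of the exchange factor of initiation factor 2, with 18.8 against 37.8. On the values as deposited neither was past 2-fold.

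Genes for other nitrogen and nucleotide needs gave mixed values. Of 16 genes for nitrogen sources, 3 were higher and 3 lower without amino acids. GAT1, an activator of these genes, had 940 RPKM without amino acids, 110 with His, Met and Leu and 14.0 in complete medium. DAL80, a repressor of them, had 226 and 38.8 RPKM and was listed at 0 in complete medium. The ammonium permease MEP2 was high in both starved libraries, with 1359 and 805 RPKM against 3.53 in complete medium, and the general permease GAP1 likewise, with 1963, 2058 and 29.7. Of the 16 permeases listed, 5 were higher and 4 lower. All higher ones but BAP2 belong to the sulfur compounds. The 4 lower ones were PUT4, for proline, the tyrosine and tryptophan permeases TAT1 and TAT2, and GNP1, for glutamine, which had 101.02 RPKM against 396.

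Purine synthesis had 5 of 12 genes lower and none higher, with a median of -0.91, and 2 lower on the values as deposited. ADE57, an enzyme with 2 steps of the pathway, had 141 RPKM without amino acids, 618 with the 3 added back and 247 in complete medium. Pyrimidine synthesis and uptake had 3 higher and 2 lower of 9 kept, with centred differences from -2.40 to 1.55 and a median of 0.19. URA1, the dihydroorotate dehydrogenase, had 611, 163 and 1371 RPKM, and URA2, the first enzyme of the pathway, had 167, 49.3 and 231. Both were among the higher ones, and had the lowest value of the 3 libraries where His, Met and Leu were added back. The share of all genes with this order was not counted. Whether that medium held uracil is not stated for this library, and any part of uracil in these values was not tested.

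Genes of protein synthesis were among the lower ones. Of 95 lines of cytosolic ribosomal proteins, 78 were at least 2-fold lower without amino acids, beside 12.7% of all genes kept, and none was 2-fold higher. Their median was -1.59 and their range -3.82 to 0.03. On the values as deposited 60 lines were 2-fold lower, with a median of -1.24. The median line had 335 RPKM without amino acids, 812 with His, Met and Leu and 2590 in complete medium. Among reads on the 56 single-locus lines, their share was 1.61%, 4.01% and 13.9% in this order. The median primer set term of these genes was 0.13. Many ribosomal protein genes are pairs of near-identical copies counted on 1 line, and values on them belong to the pair.

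The extremes of this list were far apart. RPL22B (YFL034C-A) had 27.7 RPKM without amino acids, 318 with the 3 added back and 266 in complete medium, the largest negative difference of all single-locus genes kept, at -3.82. The line of RPS9A and RPS9B had 103, 538 and 2278. At the other end RPS28A had 1512, 1168 and 2219 RPKM and RPL29 had 1261, 985 and 4488, with centred differences of 0.03 and 0.01. RPS28B, the paralog of RPS28A, had 80.1, 380 and 1146, a centred difference of -2.58. The 2 copies of this protein thus lay near opposite ends of the list, and how their shared reads were divided is not known.

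Factors of translation were lower too. Of 7 lines of elongation factors, 6 were at least 2-fold lower, with a median of -1.83. EFB1, the exchange factor of elongation factor 1, had 142 RPKM without amino acids, 687 with the 3 added back and 4206 in complete medium. The joint line of TEF1 and TEF2, elongation factor 1 itself, had 1497, 5224 and 13155. Of 19 lines of initiation factors 9 were lower, and of 18 aminoacyl-tRNA synthetases 10, with medians of -0.84 and -1.06. On the values as deposited only 4 of each were 2-fold lower, with medians of -0.50 and -0.72. PAB1, the poly(A)-binding protein, had 52.9, 148 and 1094 RPKM. The centred differences of the synthetases ranged from -1.89 to -0.31. MES1, for methionine, had -0.42, near the upper end, CDC60, for leucine, -0.80, and HTS1, for histidine, -1.07.

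Genes that build ribosomes were low in both starved libraries. Only 11 of 28 listed genes passed the filter of 10 RPKM, and 5 of these were lower without amino acids, with a median of -0.91. Without the filter, 11 of all 28 were lower, with a median of -0.69. NOP1, which methylates ribosomal RNA, had 20.03 RPKM without amino acids, 93.2 with His, Met and Leu and 642 in complete medium. The centred median of the kept genes relative to complete medium was -3.87 and -3.33, with the shared control, so that most of their difference lay between complete medium and either starved library. STM1, a ribosome-binding protein, had 257, 1237 and 2754 RPKM.

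Glycolysis and ethanol formation had 14 of 16 lines at least 2-fold lower without amino acids and a median of -1.87. On the values as deposited it was 10 lines and -1.53. Between the 2 replicates at the highest cycloheximide dose, this list's median difference was 0.84 under oxidative stress and -0.02 in unstressed cells. CDC19, the pyruvate kinase, had 1204 RPKM without amino acids, 4921 with His, Met and Leu and 9946 in complete medium. PGK1, the phosphoglycerate kinase, had 2859, 11011 and 9510, and the joint line of the glyceraldehyde phosphate dehydrogenases TDH1, TDH2 and TDH3 had 1565, 7271 and 9750. In 11 of the 16 lines the cells without amino acids had the lowest value of the 23 libraries, which was the case for 98 (2.18%) of all genes kept. The share of reads on the 13 single-locus lines was 2.498%, 7.999% and 11.0%. PDC6, a pyruvate decarboxylase isoenzyme, was the exception, with 29.8 RPKM against 3.22 and a centred difference of 2.52. All 4 kept lines of hexose transporters were lower as well, with a median of -1.85.

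Protein folding was divided. Of 22 chaperone lines, 4 (18.2%) were higher and 8 (36.4%) lower without amino acids, beside 10.5% and 12.7% of all genes kept. SSA3, an Hsp70 that is low in growing cells, had 103 RPKM without amino acids, 1.43 with the 3 added back and 0.559 in complete medium, a centred difference of 5.08. HSP30, a membrane heat shock protein, had 64.3, 2.55 and 3.55, HSP26, a small heat shock protein, had 484, 126 and 55.2, and FES1, a nucleotide exchange factor of Hsp70, had 228, 62.8 and 67.5. The joint line of SSA1 and SSA2, the abundant Hsp70 proteins, had 538, 2492 and 2345 RPKM. In a separate list of folding in the endoplasmic reticulum, 2 of 7 genes were lower, none was higher and 5 were within 2-fold. Its median was -0.73 (-0.39 without centring). KAR2, the Hsp70 of this compartment, was lower, with 44.4, 206 and 294 RPKM. PDI1, its disulfide isomerase, was the other, with 223, 809 and 674. In 7 of the 22 chaperone lines the cells without amino acids had the lowest value of the 23 libraries, as in 2.18% of all genes kept.

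Autophagy genes included 4 that were higher without amino acids and none that was lower, of 11 kept with the vacuolar proteases. ATG1, the kinase that starts autophagy, had 99.98 RPKM without amino acids, 18.1 with the 3 added back and 5.995 in complete medium. ATG8, the protein of the autophagosome membrane, had 1156, 407 and 43.0. The proteases PEP4, PRB1 and PRC1 had centred differences of -0.34, -0.09 and -0.09.

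**Figure D3:**
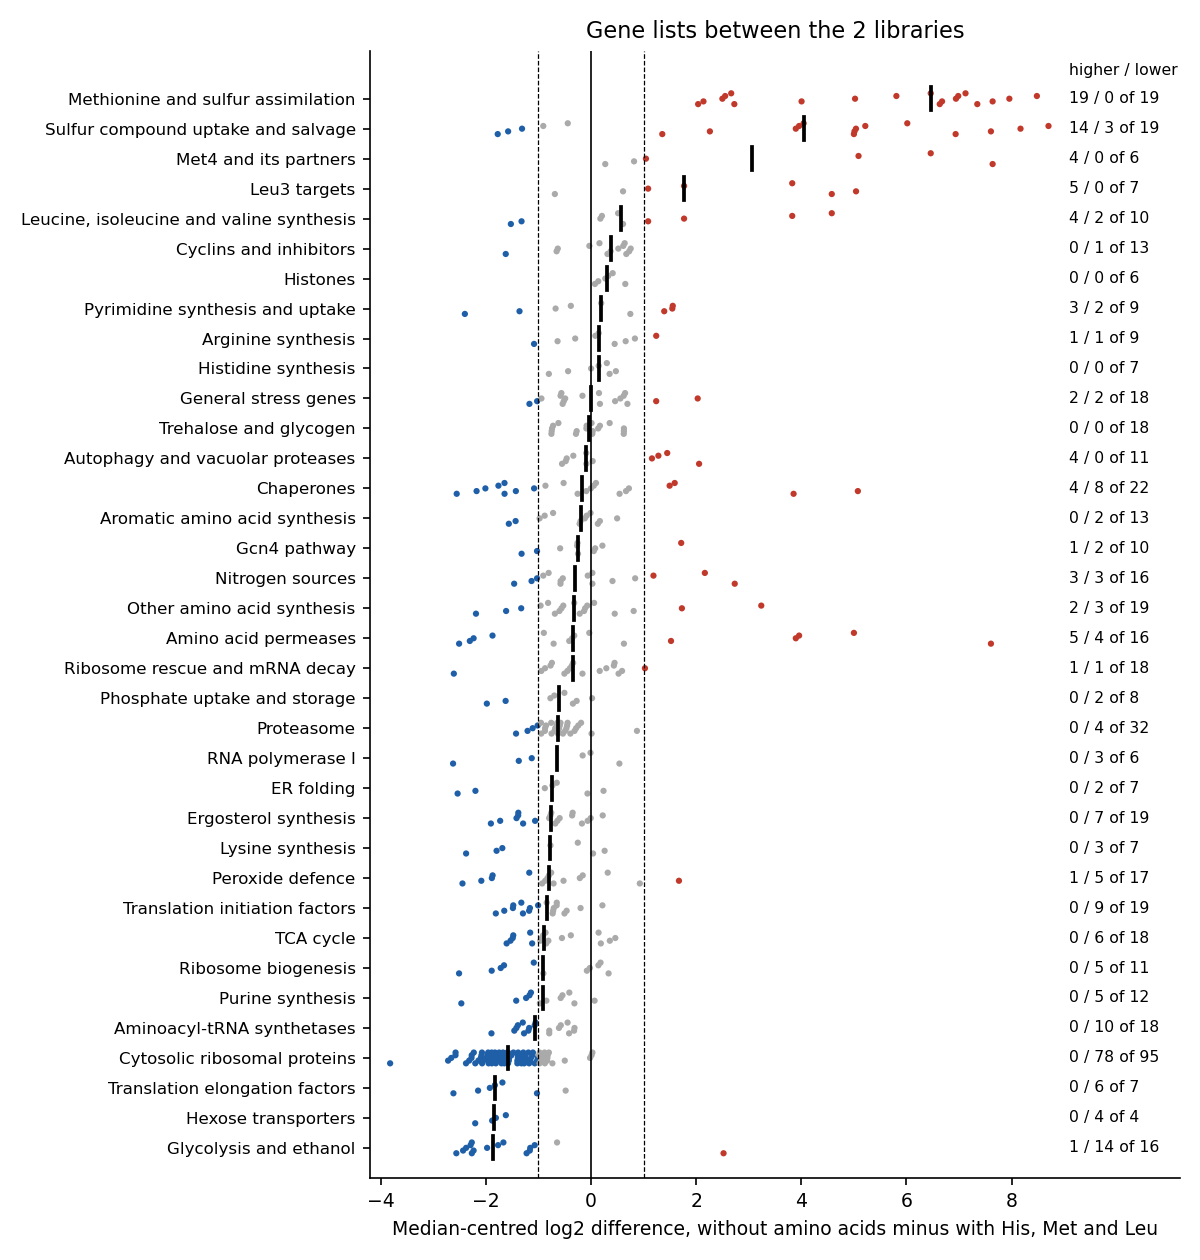
Median-centred log2 difference, without amino acids minus with His, Met and Leu, of every kept line (points) in each list, with the list's median (bar) and dashed lines at 2-fold. The numbers at the right give lines past 2-fold higher and lower of those kept. The methionine and sulfur list has its median at 6.46 and the glycolysis list at -1.87.

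Genes of reserve carbohydrates and histones were within 2-fold between the 2 media. None of 18 genes of trehalose and glycogen metabolism and none of 6 histone lines was past 2-fold. TPS1, the trehalose phosphate synthase, had 1412 RPKM without amino acids, 1708 with the 3 added back and 240 in complete medium. HSP12, a membrane protein of the general stress response, had 24976, 21989 and 1117. Of the 18 general stress genes 2 (11.1%) were higher and 2 (11.1%) lower, beside 10.5% and 12.7% of all genes kept. The higher ones were DDR2, with 5607 against 1080 RPKM, and MSN2, an activator of this group, with 198 against 65.3. Of 32 proteasome genes 4 (12.5%) were lower, beside 12.7% of all genes kept, and 1 on the values as deposited. Their median was -0.63 (-0.28 without centring), and 30 of the 32 lay below 0 after centring. Of 17 peroxide defence genes 5 were lower and 1 higher, or 35.3% past 2-fold beside 23.2% of all genes kept, with a median of -0.80 (-0.45 without centring). The higher one was GSH1, which opens glutathione synthesis from cysteine, with 62.9, 14.8 and 17.0 RPKM in the 3 libraries.

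The 12 single-locus genes with the largest negative difference were of several kinds. They were RPL22B, ACS1, VHR2, HCH1, NHP2, CTP1, SIT1, OPT2, TUF1, GUK1, YHM2 and SSZ1, with centred differences from -3.82 to -2.65. ACS1, an acetyl-CoA synthetase, had 15.05 RPKM without amino acids, 154 with His, Met and Leu and 0.757 in complete medium. OPT2, an oligopeptide transporter, had 11.1, 78.1 and 1.87. For these 2 and for CTP1, the mitochondrial citrate carrier with 5.86, 45.2 and 9.66 RPKM, the library with the 3 amino acids had the highest value of the 23 libraries. They were picked for a high value there against the other library, and the share of all genes with this rank was not counted. HCH1, an Hsp90 cochaperone, had 38.8, 327 and 188, and TUF1, the mitochondrial elongation factor, had 52.3, 290 and 150. CTP1 rested on 9 reads without amino acids and NHP2, a protein of ribosomal RNA modification, on 8.

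Genes that were abundant in complete medium made up most of the lower ones, 316 of 514. The 4419 single-locus genes were split into 5 bins of like size by their RPKM in complete medium, a library outside the comparison. In the lowest bin, up to 10.4 RPKM, 22.1% were at least 2-fold higher without amino acids and 3.51% lower. In the highest bin, from 107 RPKM, 3.85% were higher and 35.7% lower. Spearman's rho between the centred difference and that level was -0.49 over the 4419 genes, a description across genes that share the libraries and are not independent. With reading frame length rho was 0.03. The methionine and sulfur genes kept a median of at least 2.73 in each of 3 length bins, where all genes had medians between -0.02 and 0.07.

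**Figure D4:**
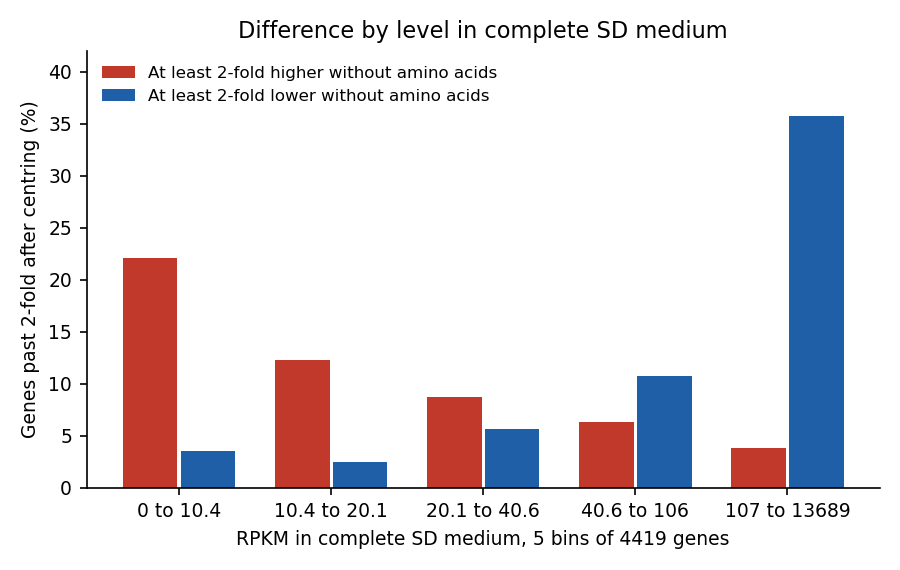
Share of genes at least 2-fold higher (red) and at least 2-fold lower (blue) without amino acids after centring, in 5 bins of 4419 genes by RPKM in complete SD medium. The share of lower genes is 3.51% in the lowest bin and 35.7% in the highest.

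The distribution of footprints along the genes was compared on the average profiles over genes longer than 1000 nt, which start 50 nt before the start codon and are divided by the mean over the last 300 nt. The broad peak, the mean from nt 31 to 200, was 2.14 without amino acids, 1.76 with His, Met and Leu and 1.59 in complete medium. The ratio of the first 2 was 1.21, or 0.28 on the log2 scale, just larger than 2 pooled SDs (0.25) of the replicate pairs at the highest cycloheximide dose. With the unstressed pair alone 2 SDs were 0.29, and the ratio was within them. That spread rests on 2 pairs and is a rough guide, not a test. Scaled by the mean of each profile from nt 31 on, the ratio was 1.07 and within 2 SDs. The profile without amino acids lay above the other at 564 of the 570 positions from nt 31 to 600, and was highest at nt 99 (2.44), against nt 96 (1.97) with the 3 added back.

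The height at the start codon had the opposite order. Its peak, the highest value from nt -20 to 30, was 1.43 without amino acids, 2.09 with His, Met and Leu and 1.92 in complete medium. The ratio of 0.683 was within 2 SDs of the replicates. Along the gene the excess over 2 SDs was not seen in every window. The ratio was 1.16 from nt 31 to 100 and 1.14 from nt 401 to 500, both within 2 SDs. It was 1.25 in the 100 nt up to nt 200, 1.22 in each 100 nt from there to nt 400, 1.10 from nt 501 to 600 and 1.07 from nt 601 to 700, all past 2 SDs. From nt 701 to 999, the stretch to which the profiles are scaled, it was 0.992. That is -0.011 on the log2 scale, also past 2 SDs there (0.0079). Towards this stretch 2 SDs shrink, from 0.22 at nt 401 to 500 to 0.042 at nt 601 to 700, as all profiles are scaled to it. Being past 2 SDs in the late windows is therefore no measure of an excess. The profiles with His, Met and Leu and in complete medium were taken by the labels of the deposited columns, while the study's own drawing shows these 2 the other way round near the start codon. If the columns are exchanged, the ratio without amino acids over with His, Met and Leu becomes 1.35 over the broad peak and 0.744 at the start codon, with the same directions.

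**Figure D5:**
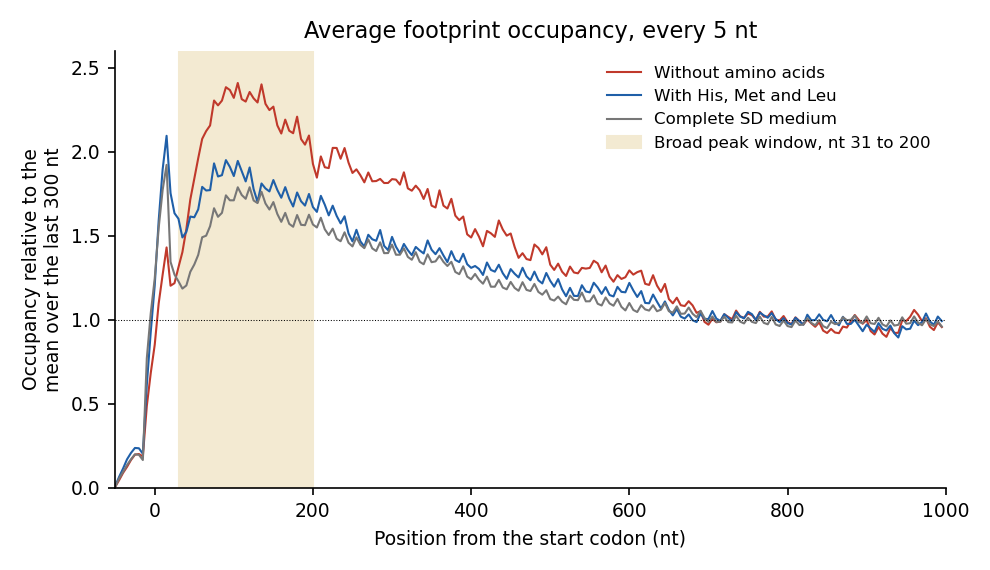
Average footprint occupancy relative to the mean over the last 300 nt, against the position from the start codon in nt, for 1 library per medium, drawn every 5 nt. Over the shaded window the mean is 2.14 without amino acids, 1.76 with His, Met and Leu and 1.59 in complete medium.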

How the data were processed

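Yeast footprints of 80S ribosomes had been aligned to the S288C genome by the authors with Bowtie 0.12.7. The deposited RPKM table holds 1 value per gene and library, and how reads with several alignments were counted is not given in the sources used here. The deposited occupancy signal is the average coverage of genes longer than 1000 nt, which the authors scaled to the mean of the last 300 nt. By their methods these were genes of a single exon above an expression cut. Whether the cut was set library by library is not stated, so the genes averaged may differ between media. Primer set 1 placed a barcode in the read and primer set 2 an index outside it, in libraries made at different times. The label field for growth names YPD for all samples, and the medium was taken from the sample names and the methods.

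Of 5564 lines, 5448 hold 1 locus and 5446 of these matched RefSeq names (assembly R64), used for symbols and lengths, and 116 join several loci. The build of the files is not stated, so no coordinates are given. Differences of log2(RPKM + 1) were taken over lines with a mean of at least 10 RPKM and centred on their median, and a line counts as past 2-fold at a centred difference of 1. With 1 library per medium no test was made. Named are the list members and the 12 single-locus genes at each end. Members and lists were chosen with earlier results of these data known. The primer set term was fitted with limma to 16 libraries and rests on the doses x1 and x8, where primer set and stress go together.

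Depth was recovered from low RPKM values, which are whole multiples of 1 read in 96.0 to 98.8% of cases (within 0.1 of a read) once 99 or 100 nt are taken off each gene. Intervals of ratios are exact binomial at 95%. The steps were tested on simulated data. Calculations used limma 3.58.1 in R 4.3.3, and in Python 3.11.15 pandas 2.3.3, numpy 2.4.6 and scipy 1.17.1, with matplotlib 3.10.9 for drawing.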

Additional observations from a re-analysis of the deposited data

How the results depend on the processing

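Between 1 library per medium no spread of the differences can be had, and the shallower library, without amino acids, limits genes with low values. None of the 9 lists with a median past 2-fold and none of the 273 named lines past 2-fold changed sign under the alternatives run. Most of these alternatives could not have turned such a sign. Without centring, for example, every line moves by the same 0.35. Of all 38 lists, 10 did, each with a median of at most 0.34 in size. Without centring the median went from -0.25 to 0.09 for the Gcn4 pathway, from -0.17 to 0.17 for chaperones, from -0.20 to 0.15 for aromatic amino acid synthesis, from -0.30 to 0.05 for nitrogen sources and from -0.09 to 0.26 for autophagy. Without the filter on low values it went from 0.19 to -0.33 for pyrimidine synthesis. The balance of genes higher and lower turned with the scaling. Without centring, 940 genes were at least 2-fold higher and 320 lower, and with centring on genes of at least 100 RPKM 884 and 343. With the primer set term taken off and no centring it was 1002 and 347, with a pseudocount of 10 there were 293 higher, and at a fold of at least 4 there were 95 and 80. The median of the methionine and sulfur list was 6.81 without centring, 6.78 with centring on genes of at least 100 RPKM, 5.06 with a pseudocount of 10 and 6.12 with the primer set term taken off. The median of the ribosomal proteins was -1.24 without centring, -1.27 with centring on genes of at least 100 RPKM and -1.27 with the primer set term taken off and no centring. The ratio of the broad peak was 1.07 with the profile divided by its mean from nt 31 on. The length of genes was added as an alternative after seeing the data, and changed none of these counts by over 1.5 times (460 higher, 518 lower).

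The primer set term called 0 genes with the number of the replicates at the highest cycloheximide dose as a block (85 at an unadjusted p under 0.05), and 0 without replicate 1 and without replicate 2 at that dose (67 and 84 at an unadjusted p under 0.05, limma). In each of these fits the term still rested on the doses x1 and x8. No paired analysis was possible between the 2 media because each has 1 library. The planned relation with the residues of the encoded proteins was not run, as no protein sequences were used here.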

Other observations

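Of the 3 kept genes that mark mating type a, 1 was past 2-fold between the 2 media. STE2, the receptor for alpha factor, had a centred difference of 1.35, BAR1, the protease that degrades this factor, 0.99, and STE6, which exports a-factor, 0.29. The median of the 3 was 0.99, and 0.40 with the primer set term taken off. BAR1 had 330 RPKM without amino acids, 130 with His, Met and Leu and 182 in complete medium, and STE6 had 80.6, 51.5 and 51.5. All 3 had their highest value of the 23 libraries without amino acids, as had 42.3% of all genes kept. FAR1, which halts the cell cycle on pheromone, had 74.2, 36.9 and 40.5 RPKM, a centred difference of 0.64. Of the 13 cyclins and inhibitors 1 (7.69%) was past 2-fold, beside 23.2% of all genes kept. It was the G1 cyclin CLN2, lower without amino acids at 8.46 RPKM against 21.9, with 40.0 in complete medium. These genes were looked at after their values had been seen, apart from the mating type markers listed to check the strain.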
